A study of Mus musculus with 8 samples.

Results

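The enzymes described here change steroid hormones inside the tissue that responds to them. The set was chosen by name, with earlier results of these data known. It held 9 genes, Hsd17b1, Hsd17b2, Hsd17b4, Hsd17b7, Hsd17b11, Hsd11b1, Hsd11b2, Srd5a1 and Akr1c18. Of these, 8 were paired with a probe set of their own in the array annotation, among 19938 genes tested. Srd5a1, which encodes a steroid reductase acting on progesterone and testosterone, had no probe set paired with it and was not analysed here. Each of the 8 genes had 1 probe set, so none was picked over another.

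Gene expression was measured by microarray in the whole uterus of 8 female mice, 4 Foxa2-deleted and 4 control, with 1 array per uterus. Foxa2-deleted females were PgrCre/+ Foxa2flox/flox, and control females were Pgr+/+ Foxa2+/+. Every female had been mated with a vasectomised male and was killed on day 3.5 of pseudopregnancy, with the day of the vaginal plug taken as day 0.5, so no embryo was present. FOXA2 is a forkhead factor that the glands of the uterus need to form. Cre was made from an allele of Pgr, the progesterone receptor gene, and so in any cell that uses Pgr and not in glands alone. Cre, the Pgr genotype and Foxa2 differed together between the groups and cannot be told apart, since the controls had neither Cre nor floxed alleles. The sources used here do not state age or strain. Foxa2 itself read 8.22, 8.20, 8.21 and 8.21 log2 units in Foxa2-deleted uteri, against 8.61, 8.82, 8.74 and 8.73 in controls, and fell by 0.52 (SE 0.05, adjusted p = 0.0013, limma). The groups did not overlap, which fits each array's label, though where the probes lie relative to the floxed part is unknown here.

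A steroid acts on a uterine cell only in its active form, and the enzymes of that cell can set how much of it is active. Hydroxysteroid dehydrogenases work in pairs: a reductase makes the potent hormone (estradiol from estrone, corticosterone from its inactive ketone), and an oxidase turns it back. Progesterone is lost by reduction to weaker products. In human endometrium HSD17B2 is known as the progestin-induced enzyme of glandular epithelium that oxidises estradiol to estrone.

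Of the 8 genes measured, 3 were higher in Foxa2-deleted uteri, Hsd17b7, Hsd17b11 and Hsd17b2, by 1.78-fold to 1.88-fold, and none was lower (limma, adjusted p under 0.05 over all 19938 genes). Over all genes 11.1% were called, 4.5% as higher and 6.58% as lower (898 and 1311 genes; 1082 and 982 with each array centred on its median, 1011 and 939 after quantile normalisation). All 3 were past 1.5-fold as well, where 3.28% of all genes were called and of at least that size. The members' median log2 difference was 0.23, against 0.0075 over all genes, and the median size without sign was 0.48 against 0.105. In 5 of the 8 genes the 4 Foxa2-deleted values did not overlap the 4 control values, 3 higher and 2 lower, where 21.1% of all genes did not overlap, 9.55% higher and 11.6% lower. The Foxa2-deleted mean was above the control mean in 5 of the 8 genes and in 52% of all genes, and 6 of the 8 had an unadjusted p under 0.05, against 31.5% of all genes. Since the members were chosen with earlier results of these data known, these shares describe them and do not test the set. Hsd11b1 and Hsd17b1 lay within 0.04 of 0. These intensities are log2 values of single probe sets, so levels are compared between arrays and not between genes, and fewer cells of a type and less RNA per cell cannot be told apart.

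**Figure D1:**
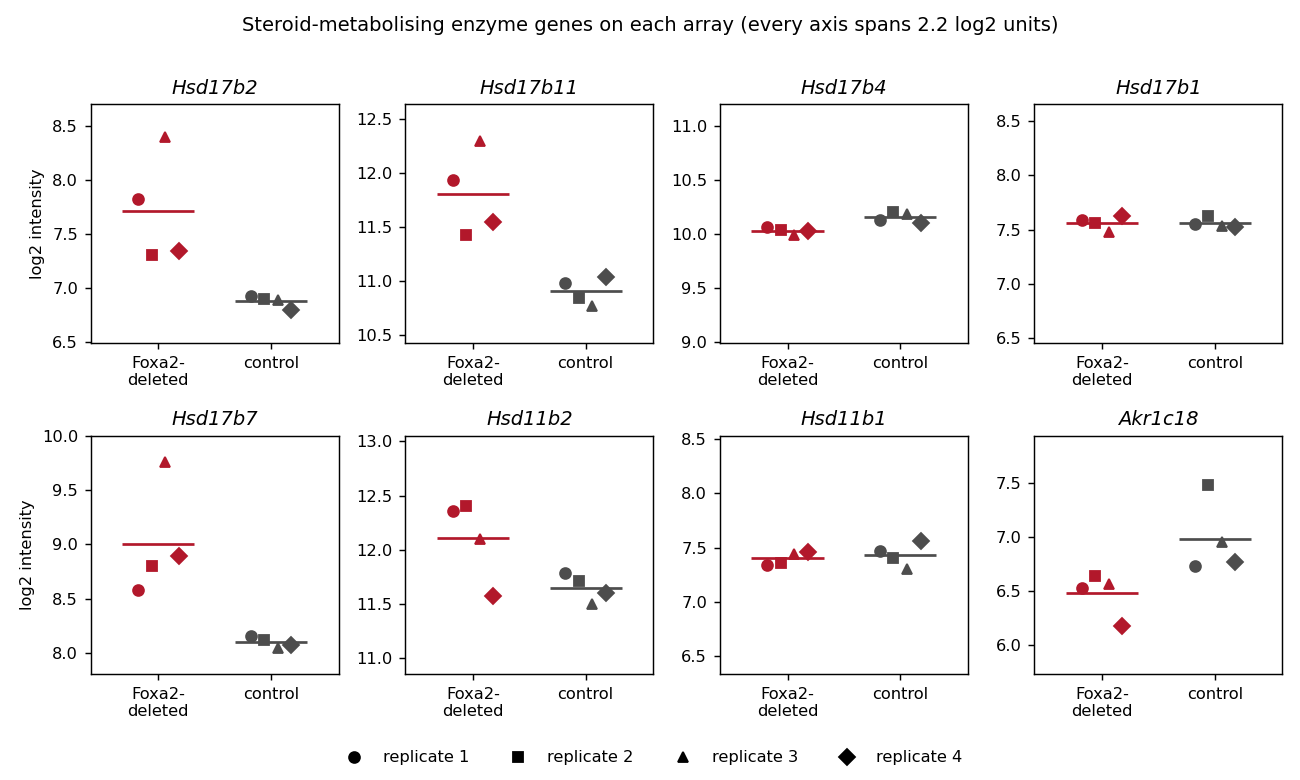
Log2 intensity of the 8 measured steroid-metabolising enzyme genes on each array, with the 4 Foxa2-deleted uteri on the left and the 4 control uteri on the right of each panel; lines are group means and marker shapes are replicate numbers. The groups do not overlap for Hsd17b2, Hsd17b11, Hsd17b4, Hsd17b7 and Akr1c18, and replicate 3 is the highest Foxa2-deleted array for Hsd17b2, Hsd17b11 and Hsd17b7.

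**Figure D2:**
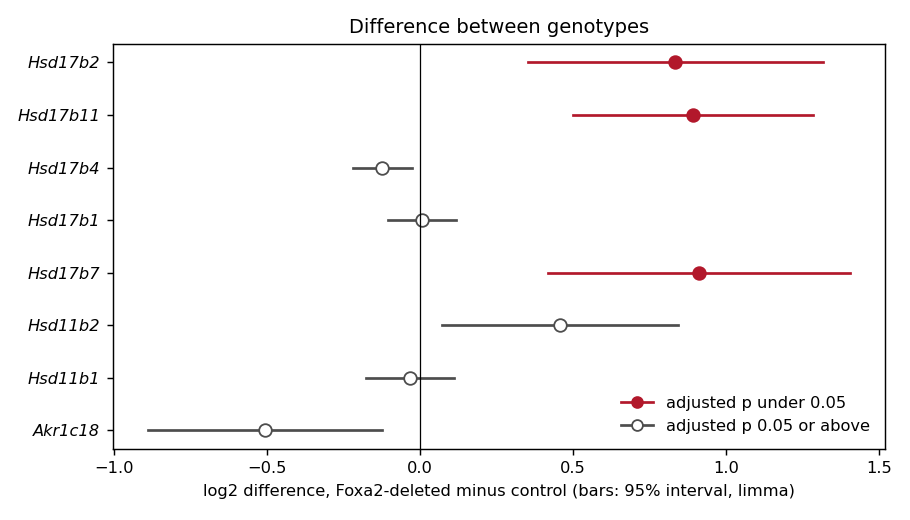
Log2 difference, Foxa2-deleted minus control, for each of the 8 genes, with 95% intervals from limma; filled red points passed an adjusted p of 0.05. Hsd17b2, Hsd17b11 and Hsd17b7 lie between 0.84 and 0.91, and the intervals of Hsd17b1 and Hsd11b1 span 0.

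Sequence upstream of the transcription start is shown for 3 members. Hsd17b7 and Hsd17b11 were higher in Foxa2-deleted uteri. Hsd11b1, which did not pass the test, held the 1 match to either FOXA core listed below among the members searched. Each window is 250 bases long and is taken from RefSeq on GRCm38.p6, which is not known to be the build behind the array. Capitals mark matches, on either strand, to any of 7 motifs: the FOXA cores TGTTTAC and TATTTAC, the estrogen response element, the shared glucocorticoid and progesterone response element, the sterol response element, the NF-Y box CCAAT and the Sp1 box GGGCGG.
Hsd17b7 (chr1:169969206-169969455, minus strand): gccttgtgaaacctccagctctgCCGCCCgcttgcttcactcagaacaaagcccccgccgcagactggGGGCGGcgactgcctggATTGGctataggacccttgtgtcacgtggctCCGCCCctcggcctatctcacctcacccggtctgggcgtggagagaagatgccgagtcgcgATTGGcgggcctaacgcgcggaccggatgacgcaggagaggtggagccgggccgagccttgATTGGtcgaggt
Hsd17b11 (chr5:104021797-104022046, minus strand): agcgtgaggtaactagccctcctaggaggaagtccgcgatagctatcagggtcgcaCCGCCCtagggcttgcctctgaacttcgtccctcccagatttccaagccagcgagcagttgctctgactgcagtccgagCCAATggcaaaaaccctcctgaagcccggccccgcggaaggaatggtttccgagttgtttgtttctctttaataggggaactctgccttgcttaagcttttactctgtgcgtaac
Hsd11b1 (chr1:193242361-193242610, minus strand): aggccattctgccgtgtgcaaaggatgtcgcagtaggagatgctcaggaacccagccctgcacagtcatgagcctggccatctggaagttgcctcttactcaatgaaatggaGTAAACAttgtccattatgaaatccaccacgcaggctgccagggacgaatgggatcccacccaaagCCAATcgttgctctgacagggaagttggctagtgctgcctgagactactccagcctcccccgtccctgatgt

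The Hsd17b7 window held 3 NF-Y boxes and 3 Sp1 boxes that did not overlap. At least 3 NF-Y boxes were found in 2.79% of 32851 windows of the same length, and at least 3 Sp1 boxes in 8.47%. These shares were not matched for GC content, which was 65.6% in the Hsd17b7 window against a median of 52.4% over all windows. The Hsd17b11 window held 1 of each, where 33.85% and 32.74% of windows held at least 1. Hsd11b1 held a TGTTTAC core 138 bases before the start, as 3.17% of windows did, and an NF-Y box. Not printed are the windows of Akr1c18, with an Sp1 box alone, and of Srd5a1, with 1 NF-Y box and 3 Sp1 boxes. None of these 5 windows matched TATTTAC (2.73% of windows), the estrogen response element (0.064%), the glucocorticoid and progesterone response element (0.387%) or the sterol response element (0.192%). A match to these letters is a description of the window and not a measured site. Looser forms of the motifs, those of forkhead factors included, were not searched for. Windows were not given here for Hsd17b1, Hsd17b2, Hsd17b4 and Hsd11b2.

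Hsd17b2 encodes the oxidase that turns estradiol into estrone and testosterone into androstenedione. It read 7.82, 7.31, 8.39 and 7.34 on Foxa2-deleted replicates 1 to 4, against 6.93, 6.90, 6.89 and 6.80 on control replicates 1 to 4. Every Foxa2-deleted uterus was above every control, with replicates 1 and 3 well above the other two. Hsd17b2 was 1.78-fold higher in Foxa2-deleted uteri (log2 difference 0.84, SE 0.21, adjusted p = 0.0405, limma). The SD was 0.507 in Foxa2-deleted uteri and 0.056 in controls (n = 4 each), a ratio of 9.06. Leaving out Foxa2-deleted replicate 1 or any 1 control ended the call (limma, adjusted p reaching 0.11), and the difference stayed between 0.61 and 0.97. The mean intensity lay among the dimmest 25% of genes, a range in which the authors' normalisation understates fold changes.

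Hsd17b11 encodes a dehydrogenase of lipid droplets that oxidises androstanediol. Its values were 11.93, 11.43, 12.29 and 11.55 in Foxa2-deleted uteri, against 10.98, 10.84, 10.77 and 11.04 in controls. The lowest Foxa2-deleted uterus, replicate 2, was still above the highest control, replicate 4. This was the smallest p among the 8 genes, with Hsd17b11 1.86-fold higher in Foxa2-deleted uteri (log2 difference 0.89, SE 0.17, adjusted p = 0.018, limma). Leaving out control replicate 2, 3 or 4 ended the call (limma, adjusted p reaching 0.0614), and the difference stayed between 0.73 and 1.02.

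The other oxidase, Hsd17b4, is a peroxisomal enzyme that breaks down very long and branched fatty acids and can also oxidise estradiol. It read 10.06, 10.04, 9.99 and 10.03 in Foxa2-deleted uteri, against 10.13, 10.20, 10.18 and 10.10 in controls. The groups did not overlap, yet the gap was narrow. The log2 difference of -0.12 (SE 0.04, 95% interval -0.22 to -0.03) did not pass (adjusted p = 0.0936, limma), nor did it with any 1 array left out. Its SD was 0.029 in Foxa2-deleted uteri and 0.046 in controls.

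Of the reductases that make estradiol, Hsd17b1 is the classical one of ovarian granulosa cells. It read 7.59, 7.56, 7.48 and 7.63 in Foxa2-deleted uteri, against 7.55, 7.63, 7.53 and 7.52 in controls, and the groups overlapped. The difference was 0.0075 (95% interval -0.10 to 0.12, adjusted p = 0.93, limma). Its mean was a dim one, in the lower 50% of genes, and with no detection call it is unknown whether the probe set lay above background.

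Hsd17b7 has 2 known activities, reduction of estrone to estradiol in rodents and a ketone reduction in cholesterol synthesis. It read 8.58, 8.80, 9.76 and 8.89 in Foxa2-deleted uteri, against 8.15, 8.12, 8.04 and 8.07 in controls. All Foxa2-deleted uteri were above all controls, and replicate 3 stood above the other three. Hsd17b7 was 1.88-fold higher in Foxa2-deleted uteri (log2 difference 0.91, SE 0.22, adjusted p = 0.033, limma). The SD was 0.518 in Foxa2-deleted uteri and 0.049 in controls (n = 4 each), a ratio of 10.5. Leaving out any 1 control ended the call (limma, adjusted p reaching 0.0923). Without Foxa2-deleted replicate 3 it held, at a smaller difference of 0.66 and an adjusted p of 0.00241 (limma).

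Genes of cholesterol synthesis and its control were read beside Hsd17b7. Of 18 measured, 5 were higher in Foxa2-deleted uteri, none was lower and 13 did not pass, with a median log2 difference of 0.70. Over all genes 4.5% were called higher. In 13 of the 18 the groups did not overlap, against 21.1% of all genes. The squalene synthase gene Fdft1 rose by 1.17 (SE 0.22, adjusted p = 0.0168, limma), and the squalene epoxidase gene Sqle by 1.25 (SE 0.29, adjusted p = 0.03). Fdps, which makes farnesyl diphosphate, rose by 1.11 (SE 0.27, adjusted p = 0.0374, limma), and Hmgcs1, at the entry of the pathway, by 0.88 (SE 0.23, adjusted p = 0.0418). The fifth was the isomerase gene Idi1, higher by 1.25 (SE 0.33, adjusted p = 0.0454, limma). The list mean, less its control mean, was 0.236, 0.551, 1.407 and 0.568 for Foxa2-deleted replicates 1 to 4, and within 0.064 of 0 on the controls. Hsd17b7 lay at 0.48, 0.70, 1.67 and 0.80 on the same arrays, in the same order. The count of 5 depended on single arrays. It was 12 without Foxa2-deleted replicate 3, 7 without replicate 1, 6 without replicate 2 and 3 without replicate 4. It was 1 without control replicate 1 or 2, and 0 without control replicate 3 or 4. With all arrays it was 1 with the replicate number as a block, 2 when all probe sets were tested and 9 with array weights. Any 1 control left out ended the calls of Sqle, Fdps and Hmgcs1, control replicate 3 or 4 that of Fdft1, and Foxa2-deleted replicate 4 that of Hmgcs1 (limma, adjusted p reaching 0.109). Upstream windows were at hand for 15 of the 18 genes. All 15 held an NF-Y box and 14 an Sp1 box, against 37.49% and 35.36% of all genes with a window, shares not matched for GC content. None held the sterol motif searched, but only 0.23% of all genes with a window did, so its absence from 15 says little.

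**Figure D3:**
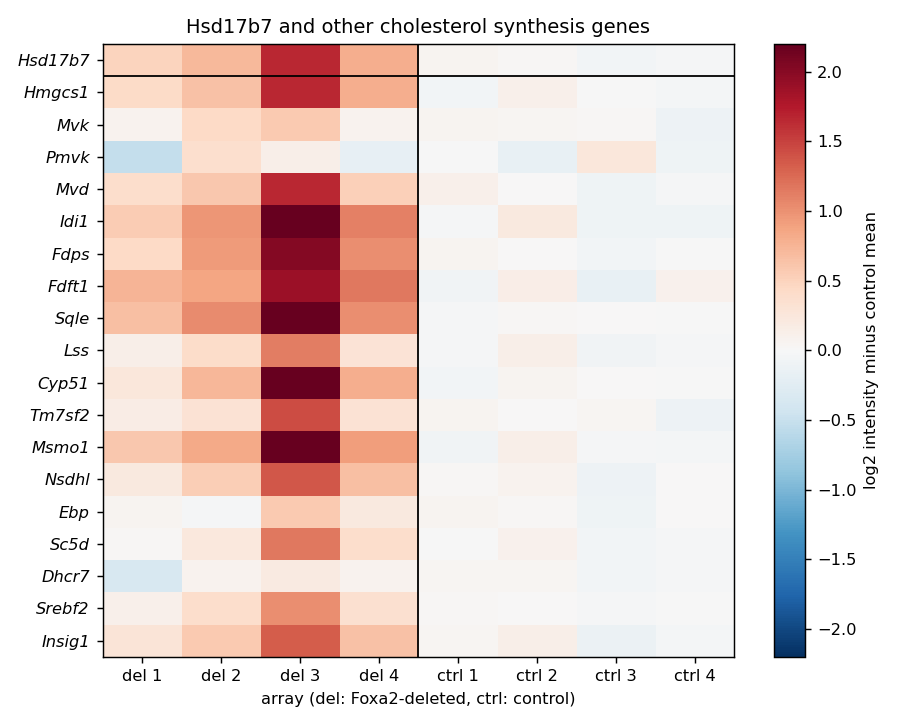
Log2 intensity minus the control mean for Hsd17b7 (top row) and 18 genes of cholesterol synthesis and its control, with the 4 Foxa2-deleted arrays left of the 4 control arrays; colours end at 2.2 in either direction, and larger differences have the end colour. Replicate 3 is the darkest Foxa2-deleted column for Hsd17b7 and for the list mean (1.407), and replicate 1 has the lowest list mean of the Foxa2-deleted arrays (0.236).

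The glucocorticoid pair was read next. Hsd11b2 encodes the oxidase that inactivates corticosterone and keeps it from the mineralocorticoid receptor. It read 12.36, 12.40, 12.10 and 11.57 in Foxa2-deleted uteri, against 11.79, 11.71, 11.50 and 11.60 in controls. Replicates 1, 2 and 3 were above every control, while Foxa2-deleted replicate 4 lay inside the control range. The difference of 0.46 (SE 0.17, 95% interval 0.07 to 0.84) did not pass (adjusted p = 0.108, limma). Without Foxa2-deleted replicate 4 it was 0.64 and passed (adjusted p = 0.0108, limma), and it did not pass with any other array left out.

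Hsd11b1, the reductase that regenerates corticosterone, is known for high levels in liver and fat. It read 7.34, 7.36, 7.44 and 7.46 in Foxa2-deleted uteri, against 7.47, 7.40, 7.30 and 7.56 in controls, so that the Foxa2-deleted values lay inside the control range. The difference was -0.03 (SE 0.06, 95% interval -0.18 to 0.11, adjusted p = 0.747, limma). H6pd, which supplies the NADPH that HSD11B1 uses inside the endoplasmic reticulum, had a difference of 0.22 (adjusted p = 0.294, limma). Of 6 genes of NADPH supply, 3 were higher in Foxa2-deleted uteri and none lower, against 4.5% and 6.58% of all genes. These were Me1, Idh1 and Pgd, which make NADPH in the cytosol, with log2 differences of 0.85, 0.57 and 0.45 (SE 0.20, 0.14 and 0.12), each past the threshold in limma at 0.033, 0.0336 and 0.0466. This count of 3 was 0 without Foxa2-deleted replicate 1 or control replicate 2, 3 or 4, 1 without control replicate 1, and 2 without Foxa2-deleted replicate 2. With all arrays and the replicate number as a block the count was 0 as well. The call of Pgd was also lost with all probe sets tested (adjusted p = 0.0618, limma).

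Genes known to respond to glucocorticoids, some of which also respond to progesterone, were read beside this pair. Of 15 measured, 4 were lower in Foxa2-deleted uteri and 1 was higher, against 6.58% and 4.5% of all genes. The median was -0.42. Zbtb16, a zinc finger repressor, the cochaperone gene Fkbp5 and the metallothionein gene Mt1 fell, with log2 differences of -1.46, -0.71 and -0.80 (SE 0.33, 0.16 and 0.19) and limma adjusted p-values of 0.0278, 0.0279 and 0.0309. Any 1 control left out ended these calls, as Foxa2-deleted replicate 1 or 3 did for Mt1 (limma, adjusted p reaching 0.0874). The fourth was Sult1a1, given below with the sulfotransferases. Lcn2, an iron-binding secreted protein, rose by 4.24 (SE 0.12). The count of 4 lower was 0 without any 1 control, 2 without Foxa2-deleted replicate 1, 8 without replicate 2 and 3 without replicate 4. With all arrays and the replicate number as a block it was 2, and Mt1 lost its call (limma, adjusted p = 0.0506). Of the receptors themselves, Nr3c1 for glucocorticoids and Nr3c2 for mineralocorticoids differed by -0.09 and -0.05 (adjusted p = 0.349 and 0.855, limma).

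Akr1c18 encodes the dehydrogenase that inactivates progesterone and is best known in the corpus luteum and at parturition. It read 6.53, 6.64, 6.56 and 6.18 in Foxa2-deleted uteri, against 6.73, 7.48, 6.95 and 6.77 in controls. All Foxa2-deleted uteri were below all controls, and control replicate 2 stood highest. The difference of -0.51 (SE 0.17, 95% interval -0.89 to -0.12) did not pass (adjusted p = 0.0833, limma), and with each array left out in turn it stayed between -0.59 and -0.34 and did not pass. The probe set was among the dimmest 25% of genes. Its family shares long stretches of sequence, and cross-hybridisation between its members was not tested.

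Among 10 other reductases of this family and of the related steroid reductases, 2 were higher in Foxa2-deleted uteri, none was lower and 8 did not pass. The median was -0.01, and 4.5% of all genes were called higher. Akr1c14, which reduces the ketone of dihydrotestosterone and dihydroprogesterone, read 11.88, 10.81, 11.82 and 11.11 in Foxa2-deleted uteri, against 9.32, 9.73, 9.49 and 9.53 in controls. It was 3.70-fold higher in Foxa2-deleted uteri (log2 difference 1.89, SE 0.23, adjusted p = 0.0036, limma), a call kept with each array left out. Akr1cl rose by 1.23 (SE 0.23, adjusted p = 0.0171, limma), a call that ended on leaving out control replicate 2, 3 or 4 (adjusted p reaching 0.0588). Akr1c19 read 6.68, 6.29, 6.55 and 8.25 in Foxa2-deleted uteri, against 7.87, 8.48, 8.37 and 8.26 in controls, so that Foxa2-deleted replicate 4 alone lay inside the control range. Its log2 difference of -1.30 (SE 0.38) did not pass (adjusted p = 0.0604, limma). The list as a whole had 1 gene called lower without Foxa2-deleted replicate 4, without control replicate 1 or with array weights. Which gene that was is not given here and need not be Akr1c19. Srd5a3, a reductase related to Srd5a1, differed by -0.08 (adjusted p = 0.418, limma).

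**Figure D4:**
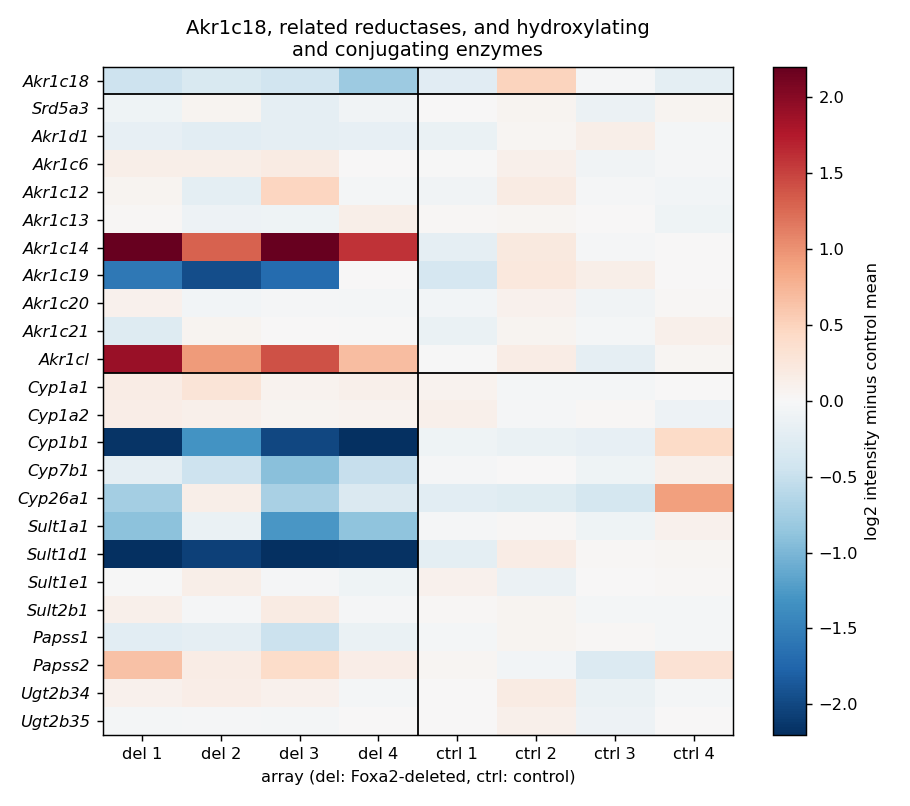
Log2 intensity minus the control mean for Akr1c18 (top row), 10 related reductases (middle block) and 13 genes listed under steroid hydroxylation and conjugation (lower block). The 4 Foxa2-deleted arrays lie left of the 4 control arrays. Colours end at 2.2 in either direction, and larger differences, such as those of Sult1d1, have the end colour. Akr1c14 and Akr1cl are red and Cyp1b1 and Sult1d1 blue on all 4 Foxa2-deleted arrays.

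Genes listed under steroid hydroxylation and conjugation, not all of which encode enzymes that act on steroids themselves, came next. Of 13 measured, 4 were lower in Foxa2-deleted uteri and none was higher, against 6.58% and 4.5% of all genes. The median was -0.03. Cyp1b1, which hydroxylates estrogens, fell by 1.97 (SE 0.23, adjusted p = 0.00256, limma). Cyp7b1, which hydroxylates oxysterols and androgen precursors, fell by 0.52 (SE 0.13, adjusted p = 0.0409, limma). The sulfotransferase genes Sult1d1 and Sult1a1 fell, with log2 differences of -3.53 and -0.81 (SE 0.68 and 0.20) and limma adjusted p-values of 0.0174 and 0.0398. The estrogen sulfotransferase gene Sult1e1 read 4.26 to 4.49 in Foxa2-deleted uteri and 4.23 to 4.45 in controls, and its groups overlapped. The count of 4 was 1 without control replicate 2, 3 or 4, and 2 without control replicate 1. Of the 4, Cyp1b1 alone kept its call with each array left out. Control replicate 2, 3 or 4 left out ended the other calls, as control replicate 1 or Foxa2-deleted replicate 4 did for Cyp7b1 and Sult1a1, and Foxa2-deleted replicate 1 or 3 for Sult1a1 (limma, adjusted p reaching 0.115). The calls of Cyp7b1 and Sult1a1 were also lost under cyclic loess and with all probe sets tested, which left 2, and that of Cyp7b1 after quantile normalisation (limma, adjusted p 0.0509 to 0.0549). A replicate block ended both calls too (limma, adjusted p = 0.0535 for each).

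Genes of steroid synthesis from cholesterol, not all of which encode enzymes, did not pass the test. Of 10 measured, 0 were called by limma, none had an unadjusted p under 0.05 but Cyp21a1, and the median was 0.13. Cyp21a1, a hydroxylase of the adrenal cortex, read 8.97, 7.35, 8.83 and 7.46 in Foxa2-deleted uteri, against 6.99, 7.05, 6.98 and 6.86 in controls (log2 difference 1.18, SE 0.36, adjusted p = 0.0667, limma). It passed without Foxa2-deleted replicate 2 or 4, where the lowest adjusted p was 0.023, and with array weights (0.0297). Cyp11a1, which makes the first steroid from cholesterol, differed by 0.14 (SE 0.06, adjusted p = 0.162, limma). Of 16 other hydroxysteroid dehydrogenase genes, 0 were called by limma and 4 had an unadjusted p under 0.05, where 31.5% of all genes had one. Hsd3b2 differed by 0.17 (SE 0.05, adjusted p = 0.0546, limma), which passed without control replicate 1 (adjusted p = 0.0492), with arrays centred on their medians (0.0488) or with array weights (0.0452), and Hsdl2 by -0.15 (SE 0.05, adjusted p = 0.0733).

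Genes of the organelles in which 2 of the enzymes sit were also read, beside shares over all genes of 4.5% higher and 6.58% lower. Of 16 genes of peroxisomal oxidation, the pathway of HSD17B4, 1 was lower and none higher, with a median of -0.04. This was the import receptor gene Pex7, which fell by 0.34 (SE 0.07, adjusted p = 0.024, limma), a call that ended on leaving out Foxa2-deleted replicate 1 or control replicate 2, 3 or 4 (adjusted p reaching 0.0773). Of 13 lipid droplet genes, where HSD17B11 resides, 2 were higher, 1 lower and 10 did not pass, with a median of 0.21. Plin4 and the lipase gene Pnpla2 rose by 0.75 and 0.64 (SE 0.17 and 0.14, limma adjusted p 0.0264 and 0.0269). Hilpda, an inhibitor of that lipase, fell by 0.39 (SE 0.08, limma adjusted p 0.0256). Leaving out control replicate 2, 3 or 4 ended all 3 calls, and Foxa2-deleted replicate 1 that of Hilpda (limma, adjusted p reaching 0.0829). The mean of 7 adipose markers, of which only Fabp4 passed (log2 difference 1.55, limma adjusted p 0.0496, 0.132 at most with 1 array left out, and 0.051 to 0.065 after quantile normalisation or cyclic loess, with all probe sets, array weights or a trended prior), lay at 0.33 to 1.53 relative to the control mean in Foxa2-deleted uteri and at -0.78 to 0.97 in controls. Control replicates 1 and 2 were above control replicates 3 and 4 in it. Plin4 showed the same split, with 9.24, 8.90, 8.51 and 8.53 in controls, as did Pnpla2 with 10.17, 9.78, 9.51 and 9.74, and Me1 of the NADPH list with 9.30, 9.05, 8.54 and 8.82. Hsd17b11, Hsd11b1, Hsd17b4 and Akr1c18 did not show it. Hsd17b2, Hsd17b7, Hsd17b1 and Hsd11b2 did, with control SDs of 0.056, 0.049, 0.050 and 0.127, against 0.347 for Plin4. The part of fat in these values was not tested. Lipid droplet genes called higher were 4 with each array centred on its median or after quantile normalisation. With the replicate number as a block they were 0 (limma, adjusted p = 0.0757 for Plin4 and 0.0734 for Pnpla2). The block ended the call of Fabp4 too (limma, adjusted p = 0.0949).

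Among 15 transporters that carry steroids or their sulfates, 6 were lower in Foxa2-deleted uteri and none was higher. Their median was -0.45, and of all genes 6.58% were lower and 4.5% higher. The organic anion carriers Slco4c1 and Slco2b1 fell, with log2 differences of -1.92 and -0.45 (SE 0.21 and 0.08, limma adjusted p 0.00202 and 0.0117). The efflux pumps Abcc4 and Abcb1b fell as well, with differences of -0.55 and -0.78 (SE 0.10 and 0.14, limma adjusted p 0.0147 and 0.0149). The count ranged from 2 without control replicate 4 to 8 without Foxa2-deleted replicate 2, and was 3 without control replicate 2. Control replicate 4 left out ended the calls of Abcc4 and Abcb1b, and control replicate 2 that of Abcb1b (limma, adjusted p reaching 0.0525). Of 8 steroid receptor genes, Pgr and Esr2 rose by 0.37 and 0.21 (SE 0.10 and 0.05, limma adjusted p 0.0428 and 0.0394). Pgrmc2, a membrane protein related to a progesterone-binding one, fell by 0.39 (SE 0.06, limma adjusted p 0.00789). Any 1 control or Foxa2-deleted replicate 1 left out ended the calls of Pgr and Esr2, as did Foxa2-deleted replicate 4 for Pgr and replicate 3 for Esr2 (limma, adjusted p reaching 0.11). Both calls were also lost after quantile normalisation (limma adjusted p 0.0505 for Pgr and 0.0514 for Esr2) and with all probe sets tested (0.0576 and 0.0534), and that of Esr2 under cyclic loess (0.0719). A replicate block ended both as well (limma adjusted p 0.0777 for Pgr and 0.0632 for Esr2). Esr1, the main uterine estrogen receptor, differed by 0.10 (adjusted p = 0.31, limma).

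For each of the 3 members that passed, the 3 genes with the most alike values were found by the root mean square difference over the 8 arrays, each gene set relative to its own control mean. For Hsd17b7 these were Hmgcs1 at 0.064, Pgk1 at 0.098 and Cdk18 at 0.103 log2 units. Trabd2b at 0.068, Phyhipl at 0.082 and Anxa3 at 0.085 were nearest to Hsd17b2. Hsd17b11 was nearest to Nupr1 at 0.097, Smpd3 at 0.099 and Anxa3 at 0.101. Hmgcs1 is also on the cholesterol synthesis list, and Anxa3 was shared by Hsd17b2 and Hsd17b11. The measure includes the difference between genotypes itself, and all 8 arrays are shared.

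Markers of cell types were read on the same arrays, where 4.5% of all genes were called higher and 6.58% lower. Of 10 pan-epithelial markers, 5 were higher and none lower, and their mean relative to the control mean was 0.643, 0.448, 1.357 and 0.742 on Foxa2-deleted replicates 1 to 4. Krt19, Elf3, Krt7 and Krt8 rose by 1.86, 1.77, 1.52 and 0.93. Of those that did not pass, Cldn3 and Cldn4 had log2 differences of -0.47 and -0.11 and Krt18 one of 0.11, and without Foxa2-deleted replicate 2 1 pan-epithelial marker was called lower. Hsd17b2 and Hsd17b11 were also highest on replicate 3 and lowest on replicate 2. The arrays lay in such an order over the whole table. On a scale of 0 for the control mean and 1 for the mean of the other Foxa2-deleted arrays, over all 19938 genes, Foxa2-deleted replicates 1 to 4 stood at 0.946, 0.561, 1.38 and 0.756. That is the order of Hsd17b2 and Hsd17b11, while the epithelial mean had replicates 1 and 4 the other way round. The part of epithelium, or of this shift, in their values was not tested. Of 8 gland markers, 5 were lower, among them Foxa2, the deleted gene itself. Cxcl15, Spink1 and Ttr had log2 differences of -3.98, -4.28 and -1.22. Of 5 luminal markers, Ltf, Sprr2f and Wnt7a rose by 4.17, 3.42 and 1.09. The others, Lpar3 and Msx1, had log2 differences of -0.79 and -0.65 and did not pass (limma adjusted p 0.0603 and 0.125), though 1 luminal marker was called lower without Foxa2-deleted replicate 2 or 4. Of 8 endothelial markers 6 were lower, as were 6 of 7 markers of NK and T cells, all but the T-cell gene Cd3e (log2 difference 0.17, limma adjusted p 0.263). These included Pecam1, Tie1, Egfl7 and Esam, with differences from -0.81 to -0.62, and Klrb1c, Ncr1, Il2rb and Gzmb, with differences from -1.84 to -1.16. In turn, 1 of 9 stromal markers was lower (Nr2f2, -0.41), 1 of 7 smooth muscle markers higher (Actg2, 0.51) and 1 of 6 macrophage markers higher (Cd163, 0.25). The call of Krt8 ended on leaving out control replicate 4, which left 3 pan-epithelial calls, and those of Wnt7a, Nr2f2, Actg2 and Cd163 ended on leaving out control replicate 2, 3 or 4, among other arrays (limma, adjusted p reaching 0.132). Those of Actg2 and Cd163 were also lost under cyclic loess and with all probe sets tested (limma, adjusted p 0.0532 to 0.0644). A replicate block ended the calls of Wnt7a, Nr2f2, Actg2 and Cd163 (limma, adjusted p 0.052 to 0.106). The endothelial count was 3 without control replicate 2, 3 or 4, and the stromal count 6 without Foxa2-deleted replicate 2.

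No marker on the lists of corpus luteum and ovary or of adrenal cortex passed. Of 8 markers of corpus luteum and ovary, 0 were called by limma and 0 had an unadjusted p under 0.05. Fshr and Cyp11a1 had the smallest p, and the list mean relative to controls was -0.02 to 0.10 in Foxa2-deleted uteri and -0.04 to 0.04 in controls. Akr1c18 is known to be abundant in the corpus luteum, but this list also holds genes of follicle and oocyte, so it says little about luteal tissue alone. Of 5 adrenal markers 0 were called, and Cyp21a1 and Mc2r (log2 difference 0.47) had an unadjusted p under 0.05, as had 31.5% of all genes. The mean of the adrenal list, which holds Cyp21a1, relative to controls was 0.21 to 0.57 in Foxa2-deleted uteri and -0.06 to 0.08 in controls, and its part in the Cyp21a1 values was not tested. Kidney markers gave 0 of 5 and the oviduct marker Pax8 did not pass (0.13), with Slc34a1 and Aqp2 at 0.09 and 0.15. On the liver list Cyp2e1 rose by 1.90 and Ttr, also a gland marker, fell, while albumin, Alb, differed by 0.10. Cyp2e1 read 10.47, 9.74, 8.27 and 8.71 in controls, split between replicates as the fat marker Adipoq was (10.22, 9.74, 8.33 and 8.48), and the part of fat in it was not tested. The call of Cyp2e1 ended on leaving out Foxa2-deleted replicate 1 or control replicate 2, 3 or 4 (limma, adjusted p reaching 0.0914). A replicate block ended it as well (limma, adjusted p = 0.0642).

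The arrays set how firmly these values can be read. Median log2 intensity was 8.25 to 8.32 on the 8 arrays. Correlation between arrays, over genes that are not independent replicates, was 0.9805 to 0.9900 among Foxa2-deleted uteri and 0.9961 to 0.9968 among controls. The SD of the members was larger in Foxa2-deleted uteri for 5 of the 8 genes. The number of genes called over the whole table ran from 556 to 3059 with 1 array left out, against 2209 with all, and was 1069 without Foxa2-deleted replicate 1 and at most 1111 without any 1 control. The number of members called was 2, 3, 3 and 4 without Foxa2-deleted replicates 1 to 4, and 1, 0, 0 and 0 without control replicates 1 to 4.

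**Figure D5:**
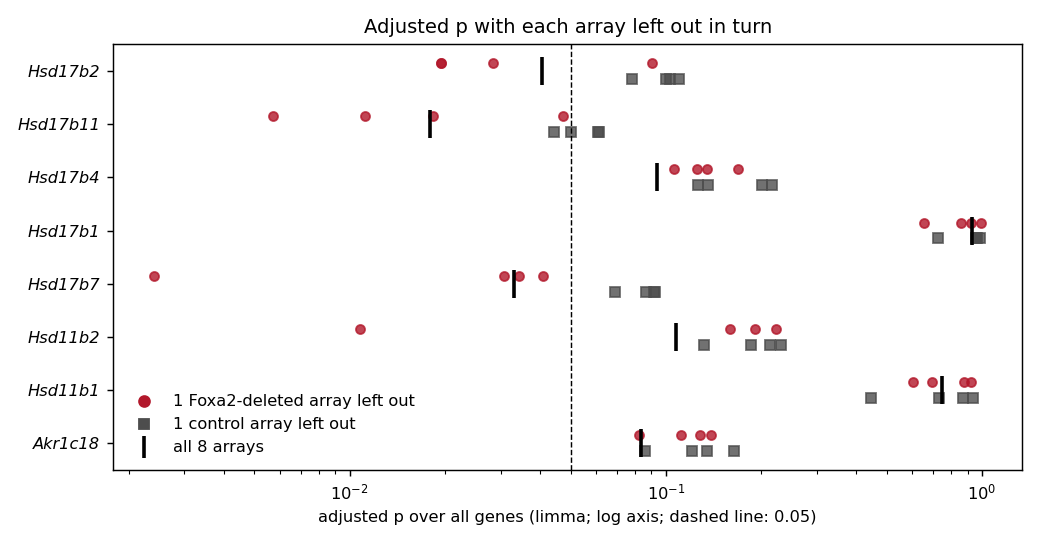
Adjusted p of the 8 genes from limma, on a log axis, with all 8 arrays (black bars), with 1 Foxa2-deleted array left out (red circles) and with 1 control left out (grey squares). For Hsd17b7 every grey square lies right of the dashed line at 0.05 and every red circle left of it, and for Hsd11b2 1 red circle lies left of it.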

How the data were processed

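Total RNA (150 ng) from each whole uterus was labelled with biotin for Affymetrix whole-transcript arrays, per the labels' protocols. The deposited values are the authors' log2 intensities, made with RMA, and limma is also named, per the submitters' processing notes. The sources used here give no versions, genome build or detection calls. RMA pulls dim probe sets together, which understates their fold changes. Of 35556 probe sets, 21789 had 1 symbol in the platform annotation held by GEO, 1621 several and 12146 none. The probe set with the highest mean stood for a gene (999 genes had several), giving 19938 genes.

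Genotypes were compared with lmFit and eBayes in limma 3.58.1 (R 4.3.3), Foxa2-deleted minus control, 4 arrays each, with Benjamini-Hochberg adjustment over all 19938 genes and a threshold of 0.05. All adjusted p are limma's. The labels call the replicates biological. The fit was tested on simulated data. Members and lists were chosen with earlier results of these data known. Named were Foxa2, Pgr, the members, up to 4 called genes per list (or the 2 with the smallest p), and the 3 genes most like each called member. Other genes are named after their values were seen: Idi1, H6pd, Nr3c1, Nr3c2, Esr1, Srd5a3, Sult1e1, Akr1c19, Lpar3, Msx1, Cldn3, Cldn4, Krt18, Cd3e, Adipoq and Alb.

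Alternatives were 3 scalings, 2 filters on dim genes, the lowest-mean probe set, all probe sets, a trended robust prior, array weights, each array left out and a replicate block. Counts of lists under each alternative were added after seeing the data.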

Additional observations from a re-analysis of the deposited data

Results flagged for a closer look

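Each group of 4 arrays was searched for 1 array far from the others (a gap to its neighbour above Dixon's critical value) in the 69 genes named by rule. None of the 8 enzyme genes had one. Of 138 groups, 9 did, where chance gives about 1 in 20. In Foxa2-deleted uteri these were replicate 4 for Hsdl2 (9.60, others 9.53 to 9.54), replicate 1 for Plin4 (9.27, others 9.61 to 9.68) and replicate 3 for Pgd (11.48, others 10.93 to 11.02), Abcb1b (6.98, others 7.60 to 7.61) and Cxcl15 (6.25, others 5.96 to 5.97). In controls they were replicate 1 for Pgrmc2 (9.55, others 9.70 to 9.73) and replicate 4 for Cyp1b1 (9.63, others 9.03 to 9.10), Abcc4 (10.34, others 10.28 to 10.29) and Sprr2f (7.55, others 7.96 to 8.04).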

How the results depend on the processing

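Over the settings that kept all 8 arrays, 68 of 73 values of the 8 enzyme genes kept their direction and side of the threshold. Hsd17b11 passed in each of these settings, and Hsd17b4, Hsd11b1, Hsd17b1 and Akr1c18 in none. Hsd17b2 (difference 0.84) lost its call with all 35556 probe sets tested (adjusted p = 0.0543), and Hsd11b2 gained one with array weights (difference 0.53, adjusted p = 0.0387). Hsd17b1 turned to -0.0094 under cyclic loess. Same-numbered arrays of the 2 genotypes had deviations correlated between -0.051 and 0.057, and not every array correlated best with its own number. No pairing by replicate number was seen in these values, though so few arrays cannot exclude one. With the number as a replicate block, Hsd17b2 (0.84, adjusted p = 0.0574) and Hsd17b7 (0.91, adjusted p = 0.0615) lost their calls, which left 1 member called, and the count over all genes was 1062, 435 higher and 627 lower, against 898 higher and 1311 lower. Genes called higher were 533 with the lower 50% left out, a filter that also removed Hsd17b2 and Hsd17b7 and left 1 member called, and 1351 with array weights. The filters on dim genes gave no value for Hsd17b2 and Akr1c18, nor the stricter one for Hsd11b1, Hsd17b1 and Hsd17b7.

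With 1 array left out, members called ranged from 0 to 4, all higher, and genes called from 556 to 3059, 196 to 1374 higher and 348 to 1777 lower. Differences ranged from 0.61 to 0.97 for Hsd17b2, 0.73 to 1.02 for Hsd17b11, 0.66 to 1.05 for Hsd17b7, 0.36 to 0.64 for Hsd11b2, -0.077 to 0.010 for Hsd11b1, -0.014 to 0.036 for Hsd17b1, -0.14 to -0.11 for Hsd17b4 and -0.59 to -0.34 for Akr1c18. Hsd11b1 and Hsd17b1 thus changed sign around 0. Of 581 values of the other 61 named genes under settings with all arrays, 41 lost a call and 3 gained one, and of 488 with 1 array left out, 129 lost and 4 gained one. None of these reversed. The cause was not tested. No detection call came with the values, so how far the dim probe sets of Hsd17b2, Hsd11b1, Hsd17b1 and Akr1c18 lay above background is unknown.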
